A study of Homo sapiens with 4 samples.

Results

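The small nucleolar RNAs, small Cajal body RNAs and Y RNAs are short, structured, untranslated RNAs. They were taken here as every probe set that the array platform ties to a single gene symbol beginning with SNORD, SNORA, SCARNA or RNY and a digit. That rule found 266 probe sets with 127 symbols, of 16127 probe sets with a single symbol and 65528 in all. They comprised 56 C/D box probe sets (SNORD, 40 symbols), 170 H/ACA box probe sets (SNORA, 53 symbols), 21 Cajal body probe sets (SCARNA, 15 symbols) and 19 Y RNA probe sets (RNY, 19 symbols). Of the 266, 56 carried an Entrez gene identifier and are called annotated genes below. A further 195 carried a family symbol without an identifier and are called family copies, and 15 were Y RNA pseudogenes.

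The samples came from LN229, an established human glioblastoma line grown in DMEM with serum and gentamycin. Cells were left untreated or received 5 µM ATO for 6 h (commonly arsenic trioxide; the labels give only the abbreviation). Total RNA and polysomal RNA, the sucrose-gradient fraction that carries ribosome-loaded mRNA, were taken from cycloheximide lysates. This gave 4 groups, untreated total, untreated polysomal, ATO total and ATO polysomal RNA, with 1 deposited sample each, in which technical triplicates had been pooled. With single arrays, no difference below has a replicate error or a test, and the array number sets how precise a value can be. In RNA of a whole culture, fewer cells with an RNA and less of it per cell cannot be told apart.

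C/D box RNAs guide ribose methylation and H/ACA box RNAs guide pseudouridylation, chiefly of ribosomal RNA in the nucleolus. Cajal body RNAs guide the same modifications on spliceosomal RNAs, and the Cajal body is a nuclear compartment. Most human members of these classes are cut out of introns of host genes, many of which encode proteins of the translation machinery. Y RNAs are transcribed by RNA polymerase III from their own genes, are bound by the protein RO60, and are found in the cytoplasm as well as the nucleus.

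All values are the deposited log2 values or differences between them, and a fold is a fold on that scale. The scale runs past plain log2 intensity, since 406 probe sets exceeded 16. A fold threshold of 1.5, taken from the series' design text, corresponds to 0.585 on the log2 scale. A level filter kept probe sets whose mean over the 4 samples reached 7.62, the median of 7936 protein-coding probe sets, and 4864 single-symbol probe sets passed it. Only 13 of the 266 small RNA probe sets passed. The table covered chromosomes 1 to 8 and part of 9, and members elsewhere were not analysed here. Over all probe sets the medians of the 4 samples lay between 4.22 and 4.26. One sample was taken as ATO total from its title, although its source name calls it polysomal. RN7SK, the abundant nuclear 7SK RNA, read 19.02 in that sample against 19.08 in untreated total, 16.56 in untreated polysomal and 16.79 in ATO polysomal RNA. The LN229 lineage markers SOX2, NES and EGFR were present, with untreated total values of 13.23, 11.43 and 8.68.

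By signal level the Y RNAs stood above the other classes in all 4 samples, although different probe sets need not read equal amounts of RNA equally. In untreated total RNA the class medians were 7.12 for Y RNAs, 4.87 for Cajal body RNAs, 4.625 for C/D box RNAs and 4.305 for H/ACA box RNAs. Over all single-symbol probe sets the median was 5.25. In ATO total RNA the same classes had medians of 6.81, 4.70, 4.885 and 4.23, so the Cajal body and C/D box classes exchanged places. Untreated polysomal RNA gave 5.77, 4.35, 4.62 and 4.12, and ATO polysomal RNA gave 5.68, 4.42, 4.54 and 4.125. Most members were dim. A value of at least 8 was reached by 17 of the 266 probe sets in untreated total RNA, by 16 in ATO total RNA, by 7 in untreated polysomal RNA and by 5 in ATO polysomal RNA. Annotated genes had a median of 5.755 in untreated total RNA and family copies one of 4.15.

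Polysomal RNA was set against total RNA to ask how far each RNA was represented in the ribosome-bearing fraction in each treatment state. Of the 266 members, 79 were over 1.5-fold lower in untreated polysomal RNA (7.55% of the 16127 single-symbol probe sets were) and 68 in ATO polysomal RNA (6.63%). Those over 1.5-fold higher numbered 8 (7.08% of all) and 3 (6.90% of all). Medians were -0.255 and -0.23, beside 0.03 and 0.04 over all single-symbol probe sets, so most members stood near 0. Lower in both states were 49 members (18.4%), beside 3.7% of all single-symbol probe sets, and 0 members were higher in both, where 389 of the 16127 were. Across the 266 members the difference in untreated cells and that in ATO cells had a Pearson r of 0.78 and a Spearman rho of 0.51. These points share array, class and in part sequence, and the sign was the same for 170 of them.

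The 13 members past the level filter are the bright end of the set. The filter acts on the mean over the 4 samples, so a member high in total RNA alone can pass it, and the selection then favours a lower polysomal value. SNORD82 and SNORD13P3 were below 7.62 in both polysomal samples, and RNY4 and a SNORA63 copy were below it in untreated polysomal RNA. The counts over the 13 are therefore a description only. In each state 12 of them were over 1.5-fold lower in polysomal RNA, where 8.10% of the 4864 filtered probe sets in untreated and 7.22% in ATO cells were, and none was over 1.5-fold higher, where 14.7% and 13.7% were. SNORA55, an H/ACA box RNA, was the exception at 0.12 and -0.22.

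**Figure D1:**
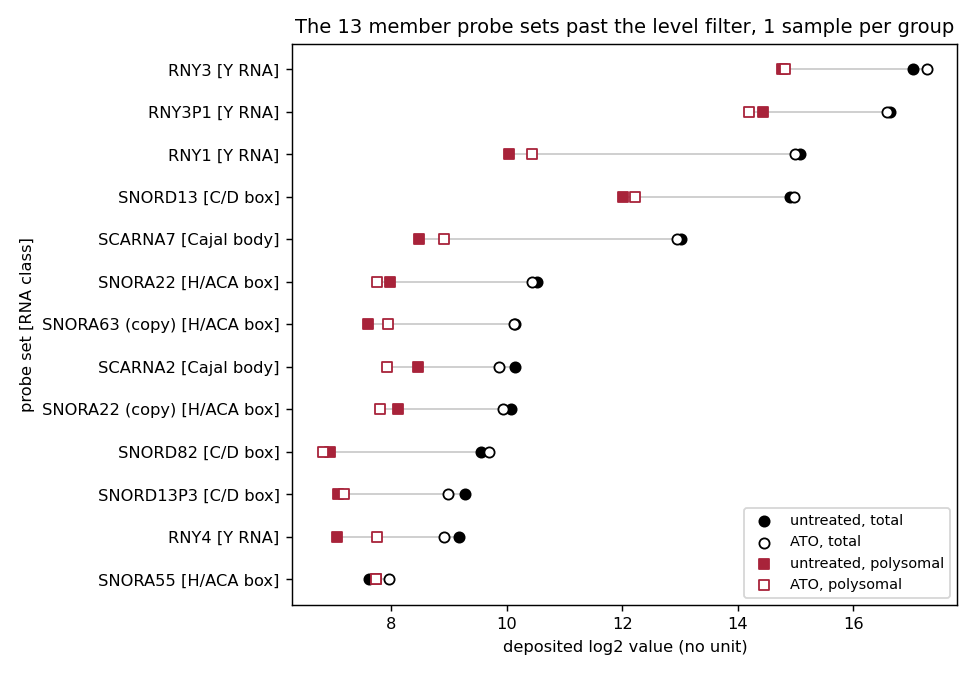
Deposited log2 values (horizontal axis, no unit) of the 13 members past the level filter, with 1 point for each of the 4 samples (circles, total RNA; squares, polysomal RNA; filled, untreated; open, ATO). In 12 of the 13 both squares lie left of both circles, and RNY1 has the widest gap (15.08 against 10.04 in untreated cells), while SNORA55 has its 4 points within 7.61 and 7.96.

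Without the level filter the classes differed in how far they were shifted. Y RNAs had medians of -1.30 in untreated and -0.78 in ATO cells, and 17 and 12 of their 19 probe sets were over 1.5-fold lower in polysomal RNA. Cajal body RNAs followed with -0.52 and -0.56 and 10 of 21 lower in each state. C/D box RNAs had -0.145 and -0.32, with 18 and 17 of 56 lower. H/ACA box RNAs had -0.18 and -0.175, with 34 and 29 of 170 lower. Lower in both states were 57.9% of the Y RNA, 33.3% of the Cajal body, 19.6% of the C/D box and 11.8% of the H/ACA box probe sets. Among the few past the filter the Y RNAs did not lead. Untreated medians there were -3.115 (2 Cajal body), -2.63 (3 C/D box), -2.255 (4 H/ACA box) and -2.225 (4 Y RNA). In ATO cells the same classes had -2.99, -2.75, -2.16 and -2.425.

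**Figure D2:**
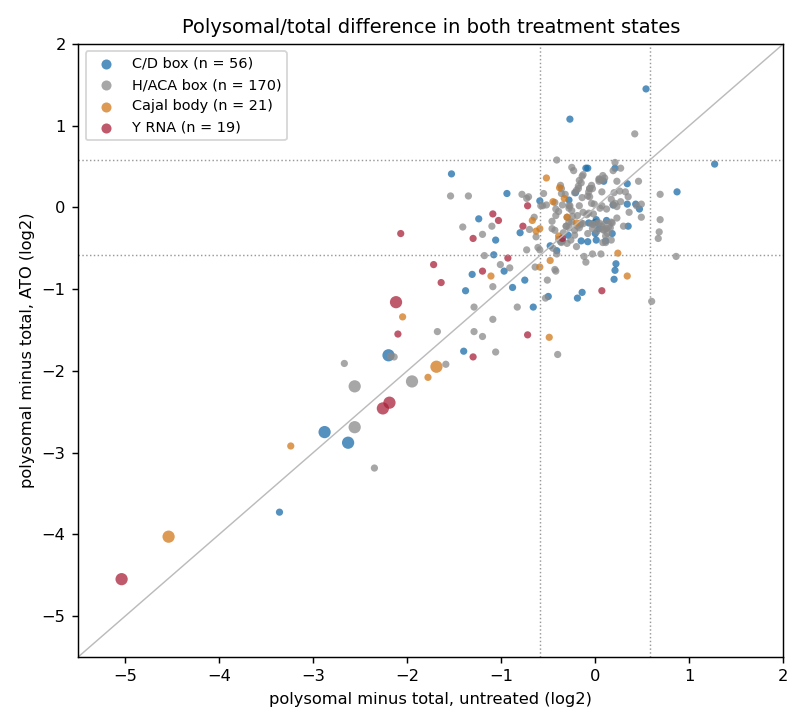
Polysomal minus total RNA (log2) in untreated cells (horizontal) and ATO cells (vertical) for the 266 members, coloured by class, with large points for the 13 past the level filter. Dotted lines mark 1.5-fold in each direction and the diagonal marks equal differences; 49 points lie in the lower left area beyond both lines and none in the upper right.

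The shift grew with signal level in total RNA. The lowest value of any probe set was 2.16, so a member dim in total RNA had little room to read lower in polysomal RNA. A difference near 0 at low level therefore does not show equal representation in the 2 fractions. To keep the level and the difference from sharing a sample, members were sorted by their total RNA value in the other treatment state, a choice made after the data were seen. The 2 total RNA samples had a correlation of 0.991 over all probe sets, so this sorting still favours members high in total RNA. A value of at least 8 was reached by 16 members in ATO total RNA but by 5 in ATO polysomal RNA. The counts by level are therefore a description only. In untreated cells the median difference was -0.04 for 90 members under 4, -0.25 for 120 members from 4 to 6, and -1.045 for 40 members from 6 to 8. It was -2.12 for 9 members from 8 to 10 and -2.56 for 7 members at 10 or more. All 16 members at 8 or more were over 1.5-fold lower. Of other single-symbol probe sets, 8.59% from 8 to 10 and 8.66% at 10 or more were. Other single-symbol probe sets in the same ranges had medians of 0, 0.01, 0.05, 0.12 and 0.16. In ATO cells the members' medians were -0.08, -0.23, -0.78, -1.86 and -2.46. There 7 of 8 members from 8 to 10 and 9 of 9 at 10 or more were over 1.5-fold lower, beside 8.31% and 7.26% of other probe sets. Within the range from 6 to 8, untreated medians were -0.58 for 12 C/D box, -0.83 for 17 H/ACA box, -2.05 for 3 Cajal body and -1.30 for 8 Y RNA probe sets. In ATO cells the same range gave -0.78 for 11 C/D box, -0.875 for 18 H/ACA box, -1.71 for 2 Cajal body and -0.70 for 7 Y RNA probe sets, so at this level the Y RNAs were lower than the C/D and H/ACA box RNAs in untreated cells only.

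**Figure D3:**
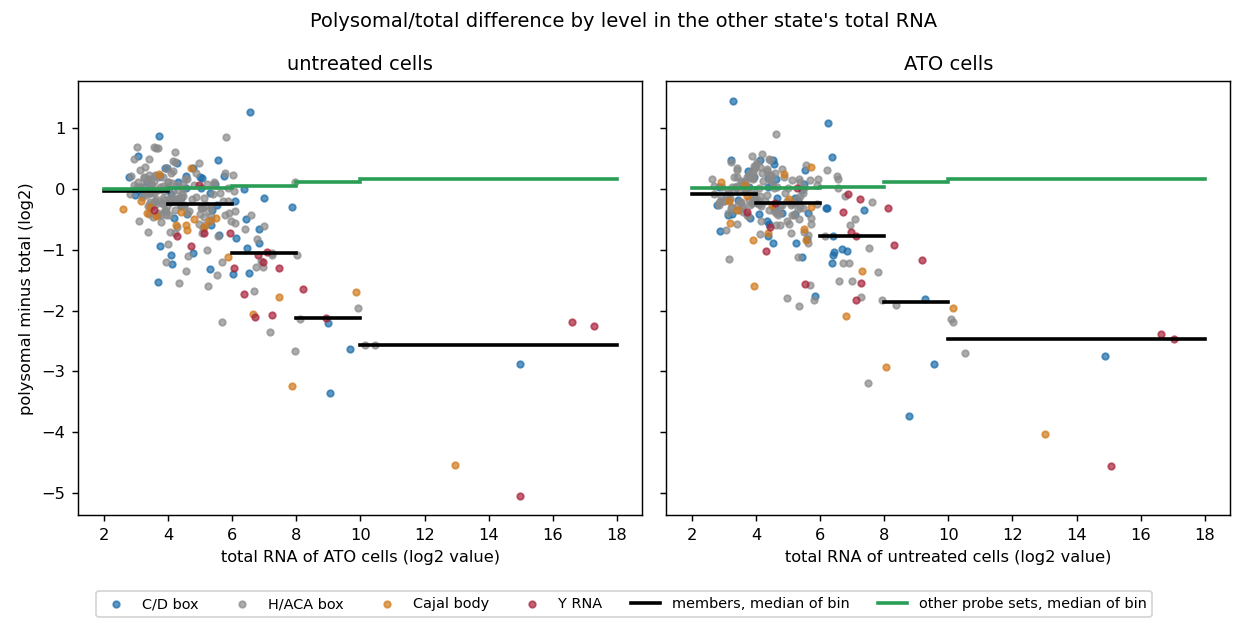
Polysomal minus total RNA (log2, vertical) of the 266 members against their log2 value in the total RNA of the other treatment state (horizontal), for untreated cells at left and ATO cells at right. Black bars give the median of the members in each range of level and green bars that of the other single-symbol probe sets; the black bars descend to -2.56 and -2.46 while the green bars stay between 0 and 0.16.

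Y RNAs. The human Y RNA genes RNY1, RNY3, RNY4 and RNY5 were all measured, on chromosome 7. RNY3 read 17.03 in untreated total, 17.28 in ATO total, 14.77 in untreated polysomal and 14.82 in ATO polysomal RNA. It was the brightest member in every sample, with polysomal deficits of 4.79-fold (untreated) and 5.50-fold (ATO). RNY1 read 15.08 and 14.99 in untreated and ATO total RNA and 10.04 and 10.44 in the corresponding polysomal RNA. At 32.9-fold and 23.4-fold lower, RNY1 had the largest polysomal deficit of all members in each state. RNY4 read 9.18 and 8.92 in total and 7.06 and 7.76 in polysomal RNA, differences of -2.12 and -1.16. RNY5, below the filter, read 6.97 and 6.37 in total and 5.25 and 5.67 in polysomal RNA, differences of -1.72 and -0.70. RNY3P1, a pseudogene of RNY3 on chromosome 5, read 16.63 and 16.59 in total and 14.44 and 14.20 in polysomal RNA. Its differences of -2.19 and -2.39 lay next to those of RNY3 (-2.26 and -2.46), and probe sets of a gene and its pseudogenes can share reads of the same RNA. The pseudogene probe sets as a group had medians of -1.09 in untreated and -0.62 in ATO cells, and RNY1P14 (0.07) in untreated cells and RNY4P16 (0.02) in ATO cells were the only ones above 0.

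Cajal body RNAs. SCARNA7 read 13.02 in untreated total, 12.94 in ATO total, 8.48 in untreated polysomal and 8.91 in ATO polysomal RNA. It was 23.3-fold and 16.3-fold lower in polysomal RNA, next to RNY1 among all members. SCARNA2 read 10.15 and 9.87 in total and 8.46 and 7.92 in polysomal RNA, or 3.23-fold and 3.86-fold lower. SCARNA22, also known as ACA11 and carried in an intron of the histone methyltransferase gene NSD2, read 8.06 and 7.88 in total and 4.82 and 4.96 in polysomal RNA. Its differences of -3.24 and -2.92 were beyond those of SCARNA2, although its mean level kept it below the filter. SCARNA6 (-2.05 and -1.34) and SCARNA18 on chromosome 5 (-1.78 and -2.08) were lower by over 2-fold in both states as well. SCARNA5 stood at -1.11 and -0.84 and SCARNA1 at -0.59 and -0.73. SCARNA27 (-0.38 and 0.24) and SCARNA3 (-0.52 and 0.36) changed sign between the states. The 9 annotated genes had medians of -1.69 and -1.34, and the 12 family copies, none of which reached 8 in any sample, had -0.42 and -0.275. Among the copies, the 4 of SCARNA16 ran from -0.63 to -0.48 in untreated cells, and 1 of them on chromosome 2 reached -1.59 in ATO cells. SCARNA11 (-0.20 and -0.19), SCARNA15 (-0.30 and -0.12) and SCARNA17 (-0.39 and -0.35) stayed close to 0. The SCARNA18 copy on chromosome 1 was at 0.34 and -0.84, the SCARNA20 copies at 0.24 and -0.56 and at -0.45 and 0.07, and the SCARNA21 copies at -0.33 and 0.11 and at -0.67 and -0.16.

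SCARNA3 shares its locus with a microRNA hairpin, and RefSeq (GRCh38.p14) places 83 of the 110 bases of MIR1843 inside the SCARNA3 span of 144 bases. That stretch lies at chr1:175968397-175968479 on the minus strand and is shown because it is the one part of a member whose sequence was at hand. Capitals mark the mature microRNA.
SCARNA3, MIR1843 stretch: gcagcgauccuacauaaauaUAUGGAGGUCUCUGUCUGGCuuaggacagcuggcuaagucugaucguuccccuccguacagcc
The SCARNA3 probe set read 5.70 in untreated total, 5.28 in ATO total, 5.18 in untreated polysomal and 5.64 in ATO polysomal RNA, all below the filter.

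C/D box RNAs. SNORD13, which takes part in acetylation of small-subunit ribosomal RNA, read 14.90 in untreated total, 14.97 in ATO total, 12.02 in untreated polysomal and 12.22 in ATO polysomal RNA. It was 7.36-fold and 6.73-fold lower in polysomal RNA and was the brightest member of its class. SNORD13P3, a pseudogene copy on chromosome 3, read 9.27 and 8.99 in total and 7.07 and 7.18 in polysomal RNA, differences of -2.20 and -1.81. SNORD82, encoded within the nucleolin gene NCL, read 9.56 and 9.69 in total and 6.93 and 6.81 in polysomal RNA, differences of -2.63 and -2.88. Below the filter, a SNORD46 copy on chromosome 7 read 8.77 and 9.06 in total and 5.41 and 5.33 in polysomal RNA. Its differences of -3.36 and -3.73 were the lowest of the class in both states. The highest differences came from a SNORD63 copy on chromosome 5 in untreated cells (1.27, with 0.53 in ATO cells) and from SNORD72 in ATO cells (1.45, with 0.54 in untreated cells). Annotated C/D box genes, 21 in number, had medians of -0.35 and -0.82, and the 35 family copies had -0.01 and -0.19.

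H/ACA box RNAs. The probe sets past the filter, SNORA55 apart, all lay on chromosome 7. The annotated SNORA22 probe set read 10.53 in untreated total, 10.44 in ATO total, 7.97 in untreated polysomal and 7.75 in ATO polysomal RNA. A SNORA22 copy read 10.07 and 9.93 in total and 8.12 and 7.80 in polysomal RNA. A SNORA63 copy read 10.15 and 10.13 in total and 7.59 and 7.94 in polysomal RNA. The polysomal deficits were 5.90-fold and 6.45-fold for annotated SNORA22, 3.86-fold and 4.38-fold for its copy, and 5.90-fold and 4.56-fold for the SNORA63 copy. SNORA14B, encoded within TOMM20, read 8.37 and 7.95 in total and 5.70 and 6.04 in polysomal RNA, and its -2.67 was the lowest of the class in untreated cells. In ATO cells the lowest was -3.19, for a SNORA63 copy on chromosome 3 that read 7.49 and 7.17 in total and 5.14 and 3.98 in polysomal RNA. Annotated H/ACA box genes, 22 in number, had medians of -0.44 and -0.465, and the 148 family copies had -0.155 and -0.10.

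Many H/ACA box symbols stood for a family of probe sets. Families of 3 or more probe sets numbered 22 over all classes and held 138 probe sets, led by SNORA70 with 14, SNORA31 and SNORA40 with 13 each, and SNORA51 with 11. In untreated cells SNORA70 ran from -1.18 to 0.18 with a median of -0.145, and SNORA31 from -0.61 to 0.36 with a median of -0.18. The SNORA40 family had all 13 of its differences below 0 in untreated cells, from -1.20 to -0.03 with a median of -0.43. SNORA51 had a median of 0.10 in each state, and its highest untreated total value was 4.95. Within a family the members are alike in sequence, and 4 probe sets, a pair of SNORA15 copies and a pair of SNORA70 copies, held identical values within each pair in all 4 samples. Over all classes, 26 of 56 annotated genes (46.4%) but 16 of 195 family copies (8.2%) were over 1.5-fold lower in both states. The annotated genes were also the brighter set. From 6 to 8 in the total RNA of ATO cells, 20 annotated genes had an untreated median of -1.175 and 13 family copies one of -0.61. Annotated genes also had the lower untreated median from 4 to 6 and at 10 or more. From 8 to 10, 3 annotated genes were at -2.12 and 5 copies at -2.14, and under 4 the medians were 0.225 and -0.04. In ATO cells, sorted by untreated total RNA, annotated genes had the lower median in every range except 8 to 10. There 4 annotated genes were at -2.395 and 2 copies at -2.77.

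A small RNA cut from an intron and the spliced mRNA of its host come from the same primary transcript, so host genes were read beside them. RefSeq gave a location to each of the 56 annotated genes, and 36 of these lay inside a gene with a single-symbol probe set, in 29 hosts. Strand was not given in the gene table used, so a host here is a containing gene. The difference of the small RNA was lower than that of its host in 27 of 36 cases in untreated cells and in 27 in ATO cells. Its difference was over 1.5-fold below that of the host in 18 and 17 cases and over 1.5-fold above it in 4 and 4. Small RNA minus host had medians of -0.60 (untreated) and -0.455 (ATO), and the hosts' own differences had medians of -0.05 and 0.01. Many of the 36 were dim, where a small RNA had little room to read lower. Of the 14 at 6 or more in both total RNA samples, 13 (untreated) and 12 (ATO) were below the host. Their medians were -1.995 and -1.73, under a selection on total RNA that favours lower polysomal values.

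Pairs at the far end were SCARNA7 in the importin gene KPNA4 (-4.50 and -4.24, small RNA minus host), SCARNA22 in NSD2 (-3.03 and -2.80) and SNORA14B in the mitochondrial import receptor gene TOMM20 (-2.99 and -2.47). SNORA22 in the pseudogene CCT6P1 stood at -2.87 and -2.77. TOMM20 itself was at 0.32 and 0.56, and KPNA4 at -0.04 and 0.21. At the opposite end, SNORA55 stood 1.31 and 0.96 above PABPC4, a poly(A)-binding protein gene whose own differences were -1.19 and -1.18. SNORD72 stood 1.09 and 2.06 above the ribosomal protein gene RPL37, from total RNA values of 3.27 and 3.05.

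The hosts with at least 3 measured members were NCL, NOP58 and RPS12. In NCL, which encodes nucleolin (-0.72 and -0.68), SNORD82 was at -2.63 and -2.88, SNORA75 at -1.54 and 0.14, and SNORD20 at 0.20 and -0.88. SNORA75 read 5.69 in untreated total, 4.33 in ATO total, 4.15 in untreated polysomal and 4.47 in ATO polysomal RNA, so the total RNA values held the change. SNORD20 read 4.53, 5.00, 4.73 and 4.12 in the same order. Inside NOP58, the gene of a core C/D box protein (-0.45 and -0.41), SNORD70 was at -1.40 and -1.76, SNORD11 at -0.50 and -1.09 and SNORD11B at 0.21 and -0.77. RPS12, a ribosomal protein gene (-0.85 and -0.92), held SNORA33 at -2.18 and -1.82, SNORD100 at -0.88 and -0.98 and SNORD101 at -0.27 and 1.08. In each of these 3 hosts the highest and lowest member lay over 1.5-fold apart in both states. Of these members only SNORD82 passed the level filter, so the distances are a description only.

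**Figure D4:**
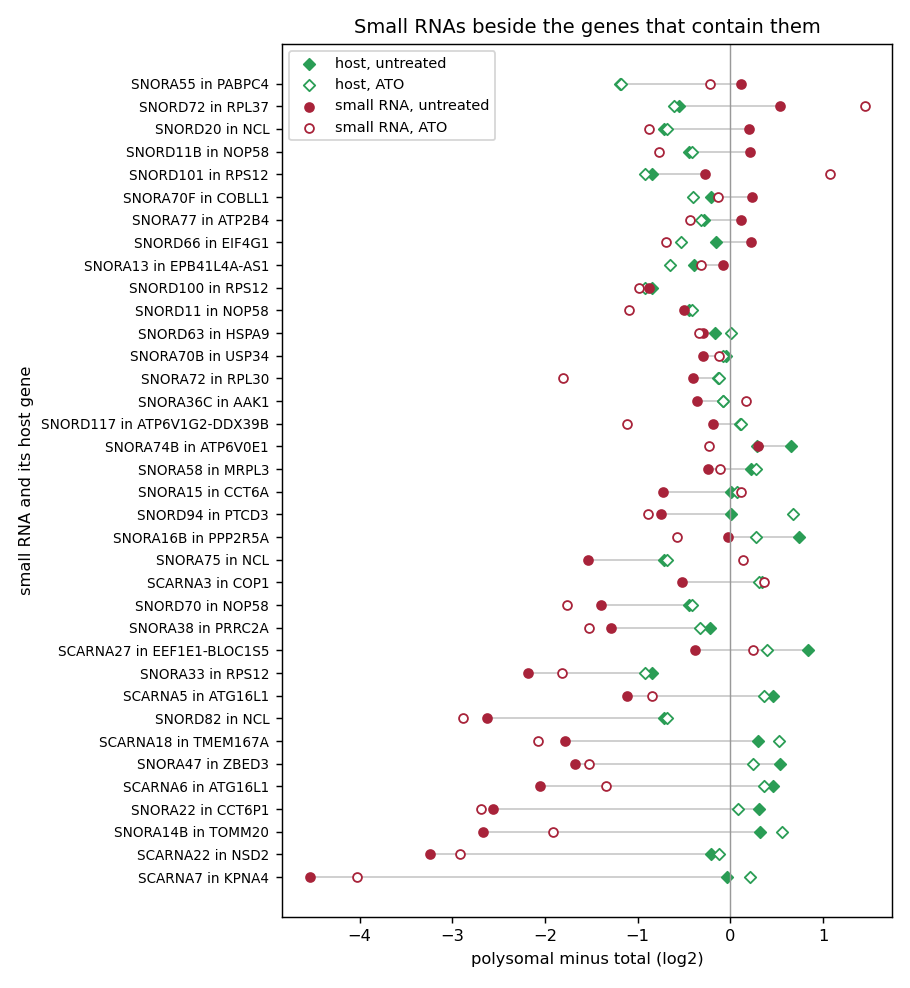
Polysomal minus total RNA (log2, horizontal) of the 36 annotated small RNAs (circles) and of the genes that contain them (diamonds), filled for untreated and open for ATO cells, ordered by small RNA minus host in untreated cells; grey lines join the untreated pair. Hosts stay between -1.19 and 0.84 in untreated cells, while the small RNAs reach -4.54.

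Vertebrate snoRNA host genes often begin transcription at a C followed by a pyrimidine run, the start of terminal oligopyrimidine mRNAs. The starts of 3 hosts are shown as RefSeq (GRCh38.p14) gives them, 15 bases before the start and 15 from it, with the unbroken run of C and T from the first transcribed base in capitals. RPS12 is at chr6:132814554-132814583 (plus strand), TOMM20 at chr1:235128823-235128852 (minus strand) and NCL at chr2:231464470-231464499 (minus strand).
RPS12: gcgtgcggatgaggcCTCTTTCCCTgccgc
TOMM20: tggcgtgtgctcggcCTTTCTgtgttcctg
NCL: tcagtctttcgcctcagtctcgagctctcg
The run was 10 bases in RPS12 and 6 in TOMM20, and NCL had none at this start. A C followed by C or T up to a run of at least 5 was found at 4.07% of all 35116 listed starts, read on the transcribed strand only. Among the 35 listed starts of 28 host genes (hosts read from several-symbol probe sets included), 5 were such starts (14.3%). They belonged to RPS12, TOMM20, SNHG12, EEF1B2 and COBLL1, and the difference in share was not tested. Small RNA minus host was -2.99 in untreated and -2.47 in ATO cells for SNORA14B in TOMM20. In RPS12 it was -1.33 and -0.90 for SNORA33, -0.03 and -0.06 for SNORD100, and 0.58 and 2 for SNORD101. In NCL it was -1.91 and -2.20 for SNORD82, -0.82 and 0.82 for SNORA75, and 0.92 and -0.20 for SNORD20, so RPS12 and NCL each held members on both sides of the host.

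The genes of proteins that build, trim or bind these RNAs were read as well. Of 42 listed genes, chosen with earlier results of these data known, 22 were measured and 21 passed the filter. Their polysomal minus total medians were -0.20 in untreated and -0.07 in ATO cells, beside 0.16 and 0.14 over all filtered single-symbol probe sets. Below 0 in untreated cells were 13 of the 21, beside 1776 of the 4864 filtered probe sets. In ATO cells 11 of the 21 were below 0, beside 1734 of the 4864. Their differences ran from -0.79 to 0.72 in untreated and from -0.68 to 0.61 in ATO cells. In untreated cells 2 of the 21 were over 1.5-fold lower (8.10% of filtered probe sets were) and 2 higher (14.7%), and in ATO cells 2 were lower (7.22%) and 1 higher (13.7%). Lower in untreated cells were TGS1, which hypermethylates the cap of small nuclear and nucleolar RNAs (-0.79; -0.36 in ATO cells), and NCL (-0.72), and higher were the cap-binding subunit NCBP2 (0.72 and 0.55) and the export adaptor PHAX (0.60 and 0.54). In ATO cells NCL (-0.68) and EXOSC10 (-0.66) were lower and NHP2 (0.61) was higher. Of 4 listed H/ACA box core protein genes 2 were measured, NHP2 (0.58 and 0.61) and GAR1 (0.03 and 0.49). Of 4 listed C/D box core protein genes only NOP58 was measured (-0.45 and -0.41), too few to compare the classes. Of the assembly factors, SHQ1 (0.28 and 0.54), RUVBL1 (0.29 and 0.08), ZNHIT6 (-0.20 and -0.17) and NAF1 (-0.50 and -0.39) stayed within 1.5-fold. So did, in the cap and Cajal body path, SMN1 (0.46 and 0.24), NCBP1 (0.08 and -0.10) and the export receptor XPO1 (-0.24 and -0.55), while TCOF1 was below the filter at -0.59 and -0.21. Among Y RNA binding proteins, RO60 was at -0.14 and 0.24 and the La protein SSB at -0.45 and -0.57, with the splicing factor PUF60 at -0.04 and 0.29. The nuclease subunits EXOSC10 (-0.40 and -0.66) and EXOSC9 (-0.51 and -0.19), the helicase MTREX (-0.35 and -0.07) and the nuclease TOE1 (-0.39 and 0.18) completed the trimming list. ATO against untreated cells was within 1.5-fold for all 21 in both fractions.

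Other untranslated nuclear RNAs gave a reference for the size of the shift. Polysomal minus total was -2.52 and -2.23 for RN7SK, -2.65 and -2.77 for the U1 gene RNU1-2 and -4.05 and -3.77 for the minor spliceosomal RNU4ATAC. The U5 genes RNU5D-1 and RNU5E-1 were at -1.54 and -1.58 and at -1.98 and -2.04. RNU5F-1, whose untreated total value was 3.79, was at -0.29 and -0.75. The median of these 6 was -2.25 and -2.135. RNY1 and SCARNA7 lay beyond the lowest of the 6.

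The comparison of ATO with untreated cells asked which RNAs moved within each fraction. In total RNA, 0 of the 13 filtered members were over 1.5-fold higher (0.308% of filtered probe sets were) and 0 over 1.5-fold lower (0.863%). In polysomal RNA, RNY4 alone was over 1.5-fold higher at 0.70 (0.678% of filtered probe sets were), and 0 were lower (0.946%). Without the filter, 13 members were higher and 17 lower in total RNA (2.18% and 2.35% of all single-symbol probe sets), and 17 were higher and 11 lower in polysomal RNA (2.36% and 2.16%). None of the 266 members passed 1.5-fold in the same direction in both fractions. Past the filter, 0 of the 13 members and 0 of the 4864 single-symbol probe sets did. No such count over all single-symbol probe sets is given here. Medians over the 266 were -0.03 in total and 0.04 in polysomal RNA. SNORD13, for example, differed by 0.07 in total and 0.20 in polysomal RNA, and annotated SNORA22 by -0.09 and -0.22. From 4 to 6 in mean level, where 121 members lay, the 95th percentile of the absolute ATO difference in total RNA was 0.86 for members and 0.66 for other probe sets.

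The change of the polysomal/total ratio with ATO was under 1.5-fold for most members and, without the filter, had its largest class median among the Y RNAs. Over the 266, 35 were over 1.5-fold higher and 23 lower, with 6.94% and 6.11% of all single-symbol probe sets so. Among the 13 past the filter 1 was higher, RNY4 at 0.96, and 0 lower (2.45% and 2.55% of filtered probe sets). For Y RNAs the unfiltered median change was 0.54, with 8 of 19 over 1.5-fold higher and 2 lower. It was -0.15 for C/D box, 0.06 for H/ACA box and 0.27 for Cajal body RNAs. Past the filter the classes lay closer together, with 0.145 (4 Y RNA), 0.13 (3 C/D box), 0.125 (2 Cajal body) and -0.155 (4 H/ACA box).

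Within the Y RNAs 1 family had a single direction. RNY4 and its 8 pseudogene probe sets all had a ratio change above 0, from 0.31 to 1.75 with a median of 0.87, and 6 of the 9 were over 1.5-fold higher. In polysomal RNA all 9 were above 0, from 0.22 to 0.96 with a median of 0.59, and in total RNA 8 of 9 were below 0, with a median of -0.17. The RNY1 pseudogenes were below 0, with RNY1P11 at -0.53, RNY1P13 at -0.84 and RNY1P14 at -1.09, whereas RNY1 itself was at 0.49. The 5 probe sets of the RNY3 family ran from -0.20 to 0.72, with RNY3 and RNY3P1 both at -0.20, and RNY5 was at 1.02. Probe sets of a family can read the same RNA, so the 9 of the RNY4 family are not 9 separate observations, and all 9 rest on the same 4 samples. The filter kept RNY4 alone of that family.

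**Figure D5:**
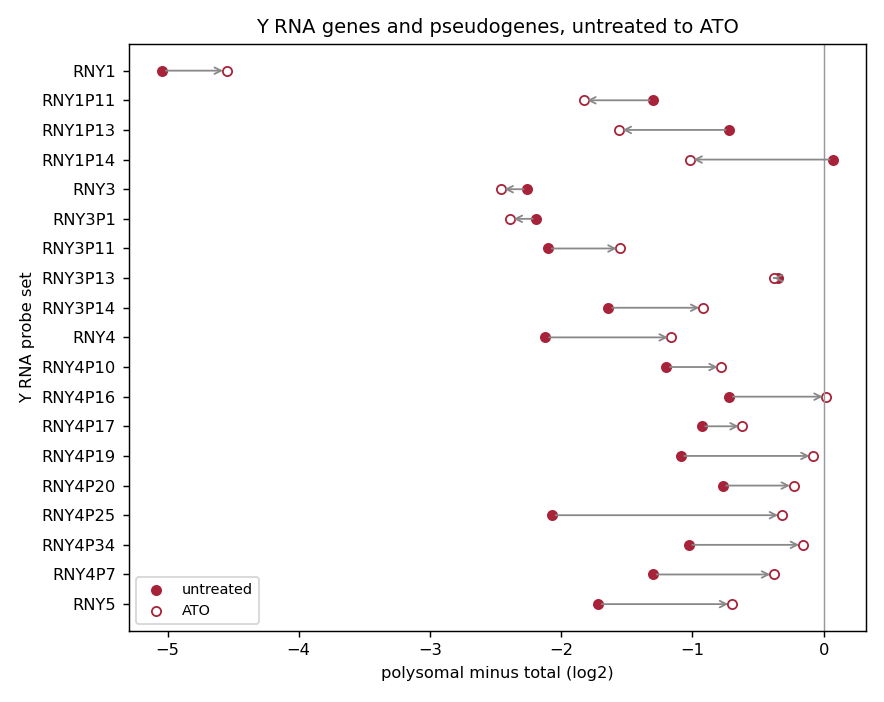
Polysomal minus total RNA (log2, horizontal) of the 19 Y RNA probe sets, with an arrow from the untreated value (filled) to the ATO value (open). All 9 arrows of the RNY4 family point right, by 0.31 to 1.75, and those of the 3 RNY1 pseudogenes point left.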

How the data were processed

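Human LN229 cells were profiled on arrays in 4 samples, 1 per group. Values were used on the log2 scale as the authors deposited them. The tool named in the submitters' processing notes is Affymetrix Expression Console; no version, summary method, normalization or build is given in the sources used here. Per the series' design text, technical triplicates were pooled. Groups came from sample titles. The members and all lists were chosen with earlier results of these data known.

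Symbols and Entrez identifiers came from the platform annotation, under which 16127 probe sets had 1 symbol, 419 several and 48982 none. Gene types, containing genes and start sequences came from RefSeq tables (GRCh38.p14). That gene table gives no strand, so hosts were matched by span alone, smallest containing gene first and its brightest single-symbol probe set. Starts on chromosome 8 were not used.

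Differences of log2 values were formed for 5 comparisons with pandas 2.3.3 and numpy 2.4.6 (Python 3.11.15), and members past 1.5-fold were counted beside all probe sets. No test was run, since each group holds 1 sample. The steps were tested on simulated data.

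Named were, of members past the filter, those with the largest differences of the same sign in both states or fractions, by class; also all SCARNA members, the Y RNA genes with the highest and lowest pseudogenes, hosts of at least 3 members and the listed protein genes. Members below the filter with the lowest or highest difference of a class, the ends of the host comparison and the Y RNA family members were named after their values were seen.

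Alternatives were centring on sample medians, quantile normalization, filtering at the 75th percentile or not at all, an offset of 32, a 2-fold threshold, a loess trend (span 0.3; statsmodels 0.14.6), means over a symbol's probe sets, and several-symbol probe sets.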

Additional observations from a re-analysis of the deposited data

Results flagged for a closer look

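In a few members, all below the level filter, an effect past 1.5-fold in one setting met an effect past 1.5-fold in the opposite direction in the other, with 1 sample on each side. The difference between the effects was not tested in any of them. The SNORA20 copy on chromosome 7 was 0.60 on the log2 scale above total RNA in the polysomal RNA of untreated cells and -1.15 in that of ATO cells. Set the other way, ATO against untreated cells was 1.07 in total RNA and -0.68 in polysomal RNA for the same probe set, from an untreated total value of 3.16. A SNORA25 copy on chromosome 2 stood at 0.86 polysomal against total RNA in untreated cells and at -0.60 in ATO cells. ATO against untreated cells gave the pseudogene RNY4P25 -0.90 in total and 0.85 in polysomal RNA. SNORD101, encoded within RPS12, had -0.70 and 0.65. A SNORD5 copy on chromosome 3 had -0.86 and 1.08, from an untreated polysomal value of 3.02.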

How the results depend on the processing

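The members' medians and counts for polysomal against total RNA kept their direction under each of the alternatives that gave them, of 14 in all, and 0 of 374 recomputed values changed the sign of a called value. Some medians within 1.5-fold did change sign without the filter. Among them, the median ratio change with ATO went from -0.13 to 0.03 for members, from 0.13 to -0.15 for C/D box and from -0.155 to 0.06 for H/ACA box RNAs. Beyond the limits set for each, 34 medians, counts and class levels of the members and 23 class medians of the differences moved. Centring, quantile normalization, the loess trend and the offset gave medians over the 13 members past the filter, a selection that favours lower polysomal values, from -2.43 to -2.22 in untreated and from -2.58 to -2.38 in ATO cells. The level filter mattered most. Without it, medians were -0.255 (untreated) and -0.23 (ATO); 79 and 68 members were over 1.5-fold lower and 8 and 3 higher. For ATO against untreated cells 17 were then lower and 13 higher in total RNA, and 11 lower and 17 higher in polysomal RNA; the ratio change was lower in 23 and higher in 35. Class medians in untreated total RNA became 4.625 (C/D box), 4.305 (H/ACA box), 4.87 (Cajal body) and 7.12 (Y RNA), against 9.56, 10.11, 11.585 and 15.855 for the few past the filter. With the filter at the 75th percentile or a 2-fold threshold, 0 members were higher for ATO in polysomal RNA and 0 for the ratio change. Adding probe sets of several symbols, most of which also read a host, brought the medians to -0.475 and -0.34 and the members higher for ATO in polysomal RNA to 2.

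Alternatives chosen after seeing the data were the annotated genes alone, members without Y RNA pseudogenes, hosts from several-symbol probe sets and the sorting by the other state's level. Annotated genes without the filter had medians of -0.655 and -0.795, with 30 and 33 lower and 0 and 2 higher; ATO gave 5 lower and 5 higher in total RNA, 2 and 3 in polysomal RNA, and 7 and 11 for the ratio change. No paired analysis was possible because each group holds 1 sample. The cause of these shifts was not tested beyond the count of members each alternative admits.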

Other observations

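Probe sets that carry a member's symbol beside other symbols, 32 in number, were kept out of the comparisons above because most of them also read the host. Their polysomal minus total medians were -0.28 in untreated and -0.135 in ATO cells, on the log2 scale. The lowest was that of SNORD89 with RNF149, a ubiquitin ligase gene, at -3.28 and -3.06, from 10.87 and 10.90 in total and 7.59 and 7.84 in polysomal RNA. SNORD50A and SNORD50B with SNHG5, their noncoding host, stood at -1.45 and -1.60. GAS5, a noncoding host named together with several C/D box RNAs, stood at -0.93 and -0.50. SNHG12 with SNORA44, SNORA61 and SNORA16A was at -0.90 and -0.98, and SNHG6 with SNORD87 at -0.55 and -0.69. The highest untreated value, 0.71 (0.20 in ATO cells), came from 2 probe sets of SNORD103A with SNORD103B that held the same values, the only ones over 1.5-fold higher. SNHG18 with SNORD123 was at 0.50 and 0.49, and SNHG15 with SNORA9 at -0.03 and 0.52.

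Among ribosomal protein hosts in these shared probe sets, RPL5 was at -0.45 and -0.42 and RPS3A at -0.48 and -0.21. RPS20 was at -0.39 and -0.09 and RPL32 with SNORA7A at -0.11 and -0.24. Some SNHG hosts lay in the same range, with SNHG32 at -0.48 and -0.24 and SNHG8 at -0.12 and -0.26, and SNHG3 with RCC1 was at 0.07 and 0.16. EIF4A2, which shares its probe set with several small RNAs, stood at 0.25 and had the highest ATO value, 0.55. SNORA59A with SNORA59B, a probe set of small RNAs only, had the largest ATO difference in polysomal RNA of the 32 at 1.13, from 5.54 to 6.67.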
